A study of Mus musculus with 32 samples.

Results

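Border macrophages, called CAMs (CNS-associated macrophages) in the study, were compared with the whole brain tissue in which they sit, on the lesioned side of the brain 1 day after stroke. For each of 6 mice (A2, A4, B1, C3, C4 and D1), the RNA-seq library of subdural CAMs (sdCAMs, that is perivascular and leptomeningeal macrophages) sorted from the ipsilateral, lesioned hemisphere was paired with the tissue library of the same hemisphere. These were 12 of the 32 libraries of the series and 6 of its 8 mice. Mice A3 and C2 were left out because their ipsilateral sdCAM libraries, labeled as degraded RNA, held 54055 and 55155 counts. The question was in which compartment the transcripts of the stroke response were more abundant.

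The mice were wild-type C57BL/6JCrl animals of both sexes (Charles River). Mice A2, A4 and B1 received vehicle (CTL), and mice C3, C4 and D1 received BLZ945, an inhibitor of the kinase receptor CSF1R that depletes microglia and border macrophages, at 200 mg per kg for 7 days. Macrophages were then left for 8 weeks to repopulate before a thrombin-induced clot was placed in the middle cerebral artery of every mouse, and samples were taken 1 day later. Sorted cells were Ly6C- Ly6G- CD11c- CD45+ CD11b+ CD206+, from brain without choroid plexus, and the tissue libraries came from brain slices.

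Border macrophages line the meninges and the perivascular spaces, where they carry scavenger and lectin receptors such as CD206 (Mrc1) and CD163, present antigen on MHC class II and take up debris. Microglia, the macrophages of the parenchyma, share with them the dependence on CSF1R and much of the myeloid program, and are set apart by genes such as P2ry12 and Tmem119. After an ischemic stroke, macrophages, astrocytes, endothelium, neurons and infiltrating leukocytes all change their transcripts, so that a gene induced in whole tissue may come from any of them.

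Total counts on genes were 8297066 to 10314584 in the sdCAM libraries and 9288717 to 12450565 in the tissue libraries, and a floor of 3 counts was 0.291 to 0.362 CPM (counts scaled to the library total) in sdCAMs and 0.241 to 0.323 CPM in tissue. This floor covers counting error only. Between 13623 and 15144 genes had a count in an sdCAM library, against 18187 to 18602 in a tissue library. The 10 most abundant genes held 8.01 to 10.99% of the counts in sdCAMs and 2.67 to 3.33% in tissue. Sorted cells and tissue were also prepared differently (the paper names an RNA kit and an amplification step for sorted cells that the labels do not), so dissociation, sorting, library preparation and compartment cannot be told apart in any comparison between them. In bulk samples, fewer cells of a type and less RNA per cell cannot be told apart.

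The label of the sorted libraries was checked first. Mrc1, which encodes the gate antigen CD206, was at 1093 to 2654 CPM in the 6 sdCAM libraries (median 1410) and at 3.23 to 4.98 CPM in the 6 tissue libraries (median 3.57). Cd163, the hemoglobin scavenger receptor, was at 222 to 922 CPM (median 505) and at 1.35 to 4.95 CPM (median 2.30). Pf4, a CXC chemokine of platelets and border macrophages, was at 452 to 902 CPM (median 529) and at 0.321 to 1.24 CPM (median 0.842). Sorted and tissue libraries did not overlap for any of these markers. The log2 fold change of sdCAMs over tissue was 8.69 ± 0.21 (SE, adjusted p = 1.69e-07) for Mrc1, 7.62 ± 0.43 (adjusted p = 2.10e-06) for Cd163 and 9.49 ± 0.35 (adjusted p = 2.80e-07) for Pf4, by edgeR's quasi-likelihood test with the mouse as a block. Mrc1 was selected by the gate and its difference is therefore no finding.

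**Figure D1:**
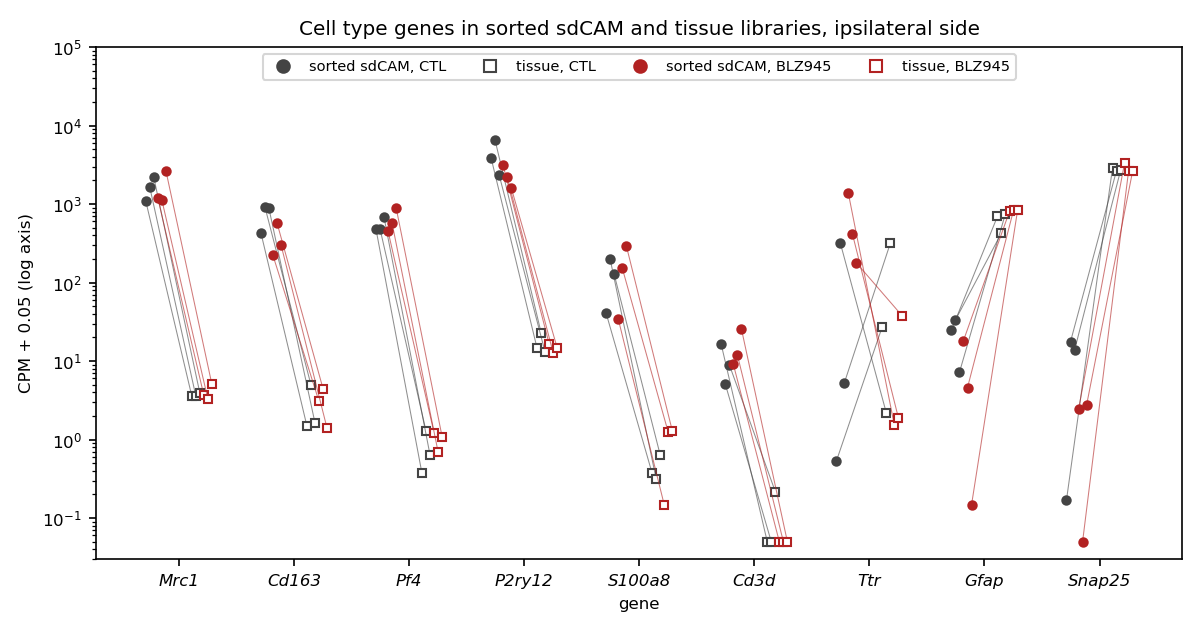
Level in CPM (log axis, 0.05 CPM added) of 9 cell type genes in each ipsilateral library, with sdCAMs as filled circles, tissue as open squares, CTL mice in grey, BLZ945 mice in red and a line joining the 2 libraries of a mouse. Every sdCAM point lies above every tissue point for Mrc1, Cd163, Pf4, the microglial P2ry12, S100a8 and Cd3d, every point lies below for Gfap and Snap25, and Ttr crosses.

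Genes of microglia were also far higher in the sorted libraries than in tissue, which the label does not state. P2ry12, the purinergic receptor that guides microglial processes, was at 1618 to 6507 CPM in sdCAMs (median 2731) and at 12.7 to 22.99 CPM in tissue (median 14.6), a log2 fold change of 7.59 ± 0.24, or 192-fold (SE, adjusted p = 1.91e-07). Of all 19157 genes tested, 4335 (22.6%) were higher in sdCAMs. For 3857 of all genes tested, called or not, every sdCAM library lay above every tissue library. A call required an adjusted p below 0.05 together with a log2 fold change outside ± 0.59. Beside this background, all 14 microglial genes tested were higher in sdCAMs, with no overlap between libraries, by log2 fold changes of 2.13 to 7.77 (median 6.36). Their summed level was 14661 to 38036 CPM in sdCAMs (median 25989) and 524.6 to 1073 CPM in tissue. For 19 border macrophage identity genes the summed level was 22955 to 40546 CPM (median 29713) and 908.6 to 1703 CPM, and all 19 were higher in sdCAMs, by log2 fold changes of 3.62 to 12.00 (median 8.69). These 19 include Mrc1, the gate gene. The level of P2ry12 over that of Mrc1 differed between sdCAM libraries. It was 3.56 in A2, 3.98 in A4, 1.08 in B1, 2.615 in C3, 1.95 in C4 and 0.610 in D1. Since both programs were high in every sorted library, the values below describe the sorted CD206+ myeloid cells as labeled, and the part of microglial RNA in each of them was not tested.

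Genes of other leukocytes were also higher in the sorted libraries. The neutrophil list summed to 300.2 to 1332 CPM in sdCAMs and 5.14 to 10.3 CPM in tissue, with 9 of 11 genes higher in sdCAMs, beside 22.6% of all genes tested. Ngp, a neutrophil granule gene, ranged from 0 to 415 CPM between sdCAM libraries (median 6.73), whereas S100a8, a calcium-binding protein of neutrophils and monocytes, was at 34.4 to 296 CPM in all 6 (0.0974 to 1.24 CPM in tissue). Of the defining neutrophil genes, Elane was below the filter and Ly6g, whose product was gated out, was not called, and 2 genes of the list were at 0 in all 6 sdCAM libraries. The lymphocyte list summed to 123.9 to 281.5 CPM against 12.5 to 49.5 CPM (10 of 11 higher in sdCAMs, beside the same 22.6%), the monocyte list to 220.5 to 722.5 CPM against 134.5 to 220.2 CPM (7 of 9) and the dendritic cell list to 163.2 to 460.5 CPM against 15.6 to 26.2 CPM (4 of 7). Ccr2, the chemokine receptor of inflammatory monocytes, was at 116 to 299.6 CPM in sdCAMs and 0.241 to 1.97 CPM in tissue. Of the genes of Ly6C, which was also gated out, Ly6c2 was called higher in sdCAMs and Ly6c1 was not called. Red blood cell genes summed to 6.69 to 143.3 CPM in sdCAMs and 3.09 to 12.2 CPM in tissue, and 2 of 5 (Hba-a1 and Hbb-bt) were higher in sdCAMs. The call of Hbb-bt was lost without A4, B1, C3 or C4 (log2 fold changes of 2.501 to 3.06). The part that these cells have in the results on cytokines and chemokines below was not tested.

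The promoters of the 3 markers and of P2ry12 are shown because these genes were high in the same libraries although they are used to tell border macrophages and microglia apart. The windows run from 250 bases before to 50 bases after the RefSeq start of the gene (GRCm38.p6, 300 bases, 5′ to 3′ on the gene's strand). Capitals mark GAGGAA or its reverse complement TTCCTC, the core letters bound by PU.1, the myeloid factor encoded by Spi1, searched on both strands as the only motif. Spi1 itself was at 431 to 512 CPM in sdCAMs and at 4.74 to 10.6 CPM in tissue.
Mrc1, chr2:14229164-14229463, + strand: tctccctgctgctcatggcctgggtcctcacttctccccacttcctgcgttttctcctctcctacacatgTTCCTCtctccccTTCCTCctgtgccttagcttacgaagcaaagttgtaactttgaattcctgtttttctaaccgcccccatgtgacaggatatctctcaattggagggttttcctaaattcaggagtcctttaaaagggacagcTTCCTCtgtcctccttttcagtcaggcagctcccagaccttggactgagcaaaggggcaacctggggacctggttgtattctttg
Cd163, chr6:124304401-124304700, + strand: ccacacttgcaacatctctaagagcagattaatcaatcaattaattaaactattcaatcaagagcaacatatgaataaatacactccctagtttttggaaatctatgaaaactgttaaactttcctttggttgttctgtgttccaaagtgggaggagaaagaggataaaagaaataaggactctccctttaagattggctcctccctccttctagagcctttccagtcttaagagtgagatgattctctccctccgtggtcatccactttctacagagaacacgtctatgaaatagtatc
Pf4, chr5:90772185-90772484, + strand: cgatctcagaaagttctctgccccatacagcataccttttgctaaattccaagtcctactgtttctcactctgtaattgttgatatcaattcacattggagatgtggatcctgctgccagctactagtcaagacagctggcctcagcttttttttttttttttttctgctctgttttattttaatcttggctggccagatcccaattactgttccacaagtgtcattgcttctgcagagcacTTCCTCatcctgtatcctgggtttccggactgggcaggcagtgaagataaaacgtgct
P2ry12, chr3:59262936-59263235, - strand: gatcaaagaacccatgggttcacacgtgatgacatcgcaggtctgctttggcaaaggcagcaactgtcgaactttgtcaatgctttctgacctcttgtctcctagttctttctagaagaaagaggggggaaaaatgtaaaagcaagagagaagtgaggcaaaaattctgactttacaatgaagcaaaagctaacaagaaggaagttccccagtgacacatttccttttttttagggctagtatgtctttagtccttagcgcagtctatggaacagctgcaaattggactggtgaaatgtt

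The Mrc1 window held 3 matches, with first bases 180, 167 and 35 bases before the start, and the Pf4 window held 1, 8 bases before it. The Cd163 and P2ry12 windows held none of these letters. Of all 32841 RefSeq windows of this length 28.3% held the motif, and of the 17466 windows of tested genes 27.1% did. The share was 30.3% over 4183 windows of genes higher in sdCAMs, 25.8% over 6982 windows of genes higher in tissue and 26.5% over 6301 windows of genes not called. Of the 21 windows that matched 15 of the 19 border macrophage genes, 13 held it (61.9%), and of the 12 windows of 10 microglial genes 2 did (16.7%). A match of letters is a description and is not a binding site.

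Toward tissue, 7119 of the 19157 genes tested (37.2%) were higher. For 6651 of all genes tested, called or not, every tissue library lay above every sdCAM library. Of the 19157 genes, 7703 were called in neither direction. The median log2 fold change over all genes tested was -0.82. With such a wide difference a called gene is the common case, and each gene list, above and below, is to be read against the 22.6% and 37.2% of all genes.

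The largest changes toward sdCAMs, among genes at a mean of 50 CPM or more, were those of Timd4, Cd209a, Rgs18, Mgl2 and Ccl8. Timd4, a phosphatidylserine receptor for apoptotic cells, was at 7.61 to 107 CPM in sdCAMs (median 41.5) and at 0 in all 6 tissue libraries, which makes it at least 183-fold higher against a floor of 3 counts per library. Mgl2, a galactose-binding lectin of CD206+ macrophages and dendritic cells, was at 121 to 701 CPM (median 339) against 0.0803 to 0.442 CPM (log2 fold change 10.45 ± 0.35, SE, adjusted p = 2.00e-07). Cd209a, another lectin and a member of the dendritic cell list, was at 43.4 to 396 CPM against 0 to 0.251 CPM. Rgs18, a regulator of G-protein signaling in blood cells, was at 42.8 to 117 CPM against 0 to 0.108 CPM. Ccl8, a chemokine made by border macrophages, was at 81.4 to 405 CPM against 0 to 0.622 CPM. None of these genes overlapped between the groups.

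The largest changes toward tissue were in neuronal genes. Adgrb2, an adhesion G-protein-coupled receptor, was at 492.9 to 650.1 CPM in tissue, Disp2 at 439 to 648 CPM, and Dlgap3, a scaffold of excitatory synapses, at 413 to 566 CPM. All of these were at 0 in the 6 sdCAM libraries, and were thus at least 1672-fold, 1679.7-fold and 1478-fold higher in tissue. Slc6a17, a vesicular transporter of neurons, was at 703 to 1104 CPM in tissue, with counts in sdCAMs at or below 0.121 CPM. Of the genes tested, 1789 had no count in any sdCAM library and 372 had none in any tissue library, and 905 and 83 of these were called.

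Genes of the neural cell types marked the tissue. All 15 neuronal genes were higher in tissue (median log2 fold change -9.07), with a summed level of 13537 to 16479 CPM in tissue and 4.19 to 64.2 CPM in sdCAMs. Snap25, a synaptic vesicle fusion protein, was at 2632 to 3360 CPM in tissue and 0 to 17.6 CPM in sdCAMs, and Camk2a, a kinase of excitatory neurons, at 2475 to 3381 CPM and 0 to 3.86 CPM. All 10 astrocyte genes (median -3.79) and all 12 genes of the oligodendrocyte lineage (median -4.93) were higher in tissue as well. Their summed levels in sdCAMs were 179.4 to 828.6 CPM and 231.9 to 779.3 CPM, against 5351 to 6679 CPM and 4846 to 11573 CPM in tissue. Slc1a2, the glutamate transporter of astrocytes, was at 6.23 to 28.6 CPM in sdCAMs and at 2684 to 3921 CPM in tissue.

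Vascular genes were less separated. Of 13 endothelial genes, 10 were higher in tissue, among them Vwf, the von Willebrand factor (43.9 to 96.0 CPM in tissue and 0.121 to 5.12 CPM in sdCAMs), and 3 were not called. Slc2a1, the glucose transporter of the blood-brain barrier, was at 90.6 to 160.2 CPM in sdCAMs and 156 to 207 CPM in tissue, with a log2 fold change of -0.53 ± 0.16 (SE, adjusted p = 0.0199) that stayed within the fold threshold. Of 9 mural cell genes, 3 were higher in tissue and 2 (Acta2 and Tagln) in sdCAMs. Tagln, a smooth muscle protein, was at 0.301 to 6.13 CPM in sdCAMs and 0.402 to 1.08 CPM in tissue, and its call was lost in 4 of the 6 fits that left out 1 mouse (A2, A4, C3 or D1, log2 fold changes of 2.03 to 2.15). Of the 3 genes higher in tissue (Rgs5, Abcc9 and Notch3), Abcc9 lost the call without A2, B1, C3 or D1 (-4.44 to -3.69) and Rgs5 without C4 (-1.35). Among 9 genes of meningeal fibroblasts 2 (Col1a1 and Igf2) were higher in tissue and 7 were not called, and Igf2 lost the call without A2, A4, B1 or C4 (-3.35 to -2.73). Of 8 choroid plexus genes none was called. Ttr, the transthyretin of choroid plexus epithelium, ranged from 0.478 to 1363 CPM in sdCAMs and from 1.46 to 318 CPM in tissue.

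**Figure D2:**
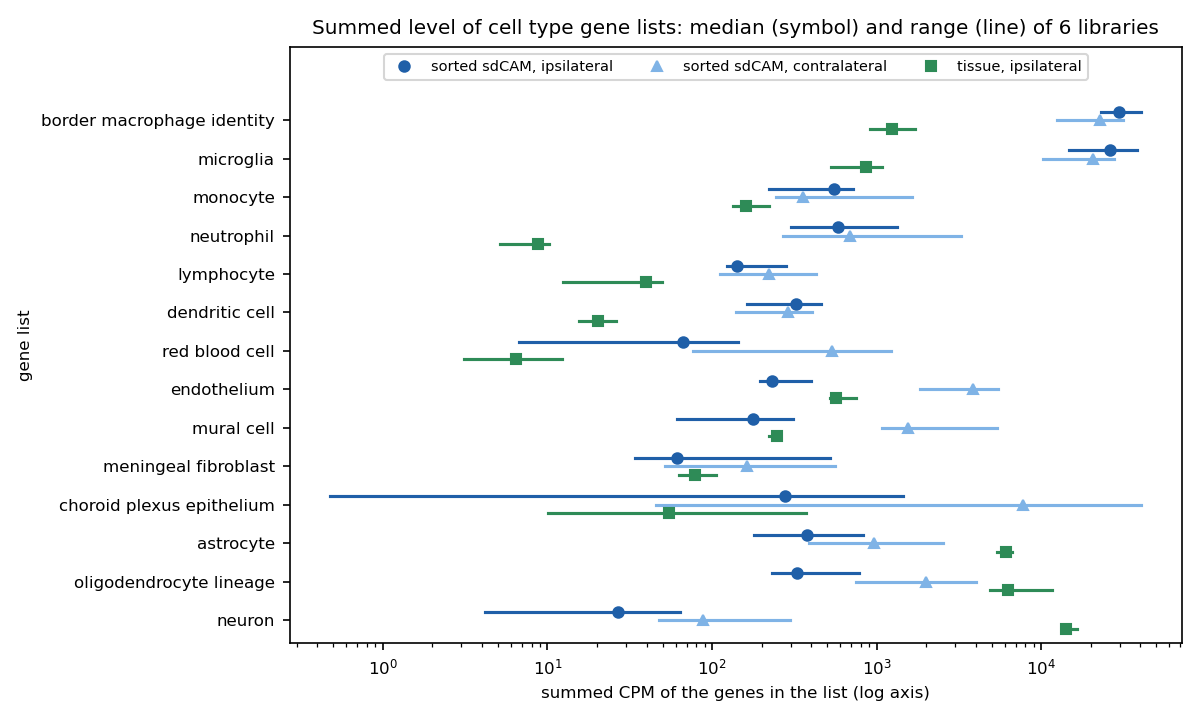
Summed CPM (log axis) of the border macrophage list and of 13 lists of other cell types, with the median (symbol) and range (line) of 6 libraries each for ipsilateral sdCAMs (dark blue), contralateral sdCAMs (light blue) and ipsilateral tissue (green). Border macrophage, microglial and leukocyte lists lie higher in sdCAMs, neuronal and glial lists lie higher in tissue (neurons 13537 to 16479 CPM in tissue and 4.19 to 64.2 CPM in ipsilateral sdCAMs), and endothelial and mural lists lie far higher in contralateral than in ipsilateral sdCAMs.

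For the stroke response, 30 genes of the tissue response and its inflammatory, matrix and glial arms were followed in every mouse. Of these, 20 were higher in sdCAMs, 4 were higher in tissue and 6 were not called. Libraries did not overlap for 17 of the 20 and for 3 of the 4. Over all 19157 genes tested, called or not, libraries did not overlap for 3857 with sdCAMs above and for 6651 with tissue above. The median log2 fold change of the panel was 4.21, against -0.82 over all genes tested. Of all genes tested, 22.6% were higher in sdCAMs and 37.2% in tissue. The panel was drawn up with results of these libraries in view, so its direction is no independent evidence.

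The chemokines of the panel were higher in sdCAMs by wide margins. Ccl4, an attractant of monocytes and T cells, was at 324 to 1076 CPM in sdCAMs (median 517) and at 1.40 to 3.94 CPM in tissue (median 2.95), with a log2 fold change of 7.70 ± 0.28, or 208-fold (SE, adjusted p = 2.80e-07). Ccl12, a mouse ligand of CCR2, was at 428 to 1561 CPM and at 5.70 to 15.2 CPM (log2 fold change 6.72 ± 0.36, adjusted p = 1.74e-06). Ccl2, the main monocyte attractant, was at 84.7 to 489 CPM and at 1.95 to 9.13 CPM (6.04 ± 0.28, adjusted p = 8.44e-07). Cxcl10, the interferon-induced attractant of T cells, showed a smaller difference, from 14.7 to 71.4 CPM in sdCAMs and 1.69 to 5.81 CPM in tissue (3.57 ± 0.45, adjusted p = 2.16e-04). None of these overlapped between the compartments.

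Over the whole CC family, 10 of 14 genes were higher in sdCAMs, 1 was higher in tissue and 3 were not called (median log2 fold change 6.61). Ccl11, the eotaxin, was the member called toward tissue, at 0 to 2.39 CPM in tissue and 0 to 0.201 CPM in sdCAMs, and it lost the call without A2, B1, C3, C4 or D1 (range of the log2 fold change -5.78 to -3.51). Of 13 CXC and CX3C chemokines, 6 were higher in sdCAMs and 3 in tissue (median 3.57). Cx3cl1, the fractalkine of neurons, was at 691 to 907 CPM in tissue and at 0.956 to 16.5 CPM in sdCAMs (log2 fold change -7.27 ± 0.60, SE, adjusted p = 1.90e-05).

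Osm, the ligand of the oncostatin M axis, and its specific receptor chain Osmr were higher in opposite compartments. Of the other listed receptor genes of the IL-6 family, Il6st, Il6ra and Lifr were called higher in sdCAMs and Cntfr in tissue. Osm, a cytokine of the IL-6 family, was at 33.8 to 185 CPM in sdCAMs (median 49.9) and at 0 to 2.28 CPM in tissue (median 0.573), with a log2 fold change of 6.45 ± 0.49, or 87.2-fold (SE, adjusted p = 1.11e-05). Osmr, its specific receptor chain, was at 0 to 8.49 CPM in sdCAMs (median 2.38) and at 21.4 to 38.0 CPM in tissue (median 29.7), a log2 fold change of -3.76 ± 0.83, or 13.6-fold toward tissue (adjusted p = 0.00472). Neither gene overlapped between the groups. The call of Osmr was lost when only the 3 BLZ945 mice were used.

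Of 19 cytokine ligands tested, 10 were higher in sdCAMs, 4 in tissue and 5 in neither (median log2 fold change 1.83). Il1a, an alarmin of the interleukin-1 family, was at 75.5 to 221 CPM in sdCAMs and 0.964 to 1.34 CPM in tissue (log2 fold change 6.88 ± 0.21, SE, adjusted p = 1.70e-07). Il1b varied over a wider range, from 11.3 to 456 CPM in sdCAMs and from 0.0803 to 5.08 CPM in tissue (6.45 ± 0.77, adjusted p = 1.50e-04). Il1rn, the antagonist of the interleukin-1 receptor, was at 17.2 to 499 CPM and at 1.61 to 17.5 CPM, so that the highest tissue library (D1) lay above the lowest sdCAM library (A4), although sdCAMs were higher in all 6 mice (4.73 ± 0.54, adjusted p = 1.24e-04). Il34, a CSF1R ligand made by neurons, was at 35.3 to 62.7 CPM in tissue and 0 to 8.20 CPM in sdCAMs (-5.06 ± 0.80, adjusted p = 7.78e-04).

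Among 21 cytokine receptors, 16 were higher in sdCAMs, 3 (Osmr, Cntfr and Il1rap) were higher in tissue and 2 were not called (median log2 fold change 3.36). Csf1r, the target of BLZ945, was at 5381 to 8073 CPM in sdCAMs and at 99.9 to 124 CPM in tissue (5.91 ± 0.14, SE, adjusted p = 1.69e-07). Il10ra, the ligand-binding chain of the interleukin-10 receptor, was at 295 to 522 CPM against 3.94 to 6.91 CPM. Cntfr, the receptor of ciliary neurotrophic factor, was at 85.7 to 129.8 CPM in tissue and 0 to 1.63 CPM in sdCAMs.

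Proteases of the extracellular matrix were split. Mmp12, the macrophage elastase, was at 75.5 to 311 CPM in sdCAMs (median 123) and at 2.41 to 11.2 CPM in tissue (median 5.00), a log2 fold change of 4.74 ± 0.40, or 26.7-fold (SE, adjusted p = 2.27e-05). Adam8, a metalloprotease of myeloid cells, was at 47.5 to 483 CPM and at 4.90 to 18.8 CPM (4.30 ± 0.43, adjusted p = 5.47e-05). Mmp3, stromelysin-1, was at or below 1.25 CPM in 5 sdCAM libraries and at 86.9 CPM in that of D1, against 1.66 to 9.96 CPM in tissue (log2 fold change -2.93 ± 1.54, adjusted p = 0.127). Without D1 its log2 fold change was -4.54 and past the threshold, and without the mouse as a block it was 1.68.

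The inhibitors and the activator of the panel were higher in tissue or were not called. Serpina3n, a serine protease inhibitor of reactive astrocytes, was at 0 to 4.78 CPM in sdCAMs (median 0.151) and at 60.7 to 127 CPM in tissue (median 114), a log2 fold change of -8.08 ± 0.94 (SE, adjusted p = 1.34e-04). Plau, the urokinase that activates plasminogen, was at 0.241 to 3.02 CPM and at 2.21 to 10.6 CPM (-1.81 ± 0.59, adjusted p = 0.0270), and its call was lost without A2, A4, C3 or D1 (log2 fold change of -1.91 to -1.55). Timp1, an inhibitor of metalloproteases, was at 0 to 7.56 CPM and at 4.24 to 8.82 CPM (-1.65 ± 0.82, adjusted p = 0.109). Of the whole list of 23 matrix proteases and inhibitors, 11 were higher in sdCAMs, 7 in tissue and 5 in neither (median 0.83), and of 15 matrix proteins 3 were higher in sdCAMs, 8 in tissue and 4 in neither (median -2.76).

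Spp1, which encodes osteopontin, varied more between mice than most genes of the panel. It was at 9554 CPM in the sdCAM library of A2, at 1072 to 2345 CPM in those of B1, C3, C4 and D1 and at 25.2 CPM in that of A4, whereas tissue was at 13.4 to 55.6 CPM (log2 fold change 5.68 ± 0.92, SE, adjusted p = 8.84e-04). The sdCAM library was the higher in every mouse, yet the libraries overlapped, and the call was lost with the 3 CTL mice alone. Sparc, another matrix glycoprotein and a gene of the microglial list, was at 1159 to 2928 CPM in sdCAMs and 186 to 774 CPM in tissue. Tnc, the tenascin of reactive glia, was at 6.37 to 22.7 CPM in tissue and below that in the sdCAMs of every mouse (0 to 9.70 CPM).

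Genes of reactive glia were divided between the compartments. Gfap, the intermediate filament of astrocytes, was at 427 to 832 CPM in tissue (median 781) and at 0.0969 to 33.3 CPM in sdCAMs (median 12.7), a log2 fold change of -6.23 ± 0.99, or 75.1-fold toward tissue (SE, adjusted p = 8.02e-04). Of 20 genes of reactive glia, 7 were higher in tissue, 6 in sdCAMs and 7 in neither (median -0.84), beside 37.2% of all genes higher in tissue and 22.6% higher in sdCAMs. Those higher in sdCAMs were Cd44, Cp, Cd14, Socs3, Stat3 and Cebpd. Cd14, the lipopolysaccharide co-receptor of myeloid cells, was at 964 to 2954 CPM in sdCAMs and at 7.96 to 37.8 CPM in tissue. Lcn2, the siderophore-binding lipocalin-2, was at 3.97 to 81.2 CPM in sdCAMs and 2.57 to 16.4 CPM in tissue and was not called (1.06 ± 0.50, adjusted p = 0.0960), though it passed without C3 (1.41). The inducible cyclooxygenase Ptgs2 was at 0.121 to 148 CPM in sdCAMs and 13.995 to 97.9 CPM in tissue (-0.52 ± 1.53, adjusted p = 0.776), and the transglutaminase Tgm1 at 0.114 to 10.6 CPM and 2.73 to 17.2 CPM (-1.15 ± 0.78, adjusted p = 0.219).

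Adhesion molecules of leukocyte entry were higher in sdCAMs. Vcam1, the ligand of the integrin VLA-4, was at 401 to 775 CPM in sdCAMs (median 572) and 20.5 to 34.3 CPM in tissue (median 28.3), a log2 fold change of 4.34 ± 0.12, or 20.2-fold (SE, adjusted p = 1.69e-07). Icam1 was at 119 to 208 CPM and at 4.50 to 12.2 CPM (4.54 ± 0.28, adjusted p = 3.49e-06). Selp, the P-selectin of endothelium and platelets, was at 0 to 5.22 CPM and 0 to 4.67 CPM (-0.60 ± 2.37, adjusted p = 0.833), so that no direction can be given. Of 12 adhesion genes, 9 were higher in sdCAMs, 1 (Pecam1) in tissue and 2 in neither (median 4.44). These 9 include Itgam, which encodes the gate antigen CD11b, so its difference is no finding.

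Oxidase genes were nearly all higher in sdCAMs, whereas the list of heme, NRF2 and metallothionein genes was divided. Cybb, the catalytic subunit of the phagocyte NADPH oxidase, was at 412 to 719 CPM in sdCAMs (median 449) and at 1.33 to 4.25 CPM in tissue, a log2 fold change of 7.64 ± 0.24 (SE, adjusted p = 1.82e-07). Of 8 oxidase genes, 7 were higher in sdCAMs and Nox4 was not called (median 5.76). Hmox1, heme oxygenase 1, was at 53.2 to 749.7 CPM in sdCAMs (median 295) and 30.1 to 89.9 CPM in tissue (median 50.1), with overlapping libraries (2.10 ± 0.51, adjusted p = 0.00721), and its call was lost with the 3 BLZ945 mice alone. Across 15 genes of heme, NRF2 and metallothionein defence, 6 were higher in sdCAMs, 3 in tissue and 6 in neither (median 0.13). The iron exporter Slc40a1 was at 269 to 502 CPM in sdCAMs and 5.45 to 7.87 CPM in tissue, and the metallothionein Mt2 at 5.06 to 15.8 CPM and 51.1 to 82.0 CPM.

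Scavenging and phagocyte genes of the panel were higher in sdCAMs. Cd36, a scavenger receptor for oxidized lipids, was at 237 to 631 CPM in sdCAMs and 0.530 to 3.94 CPM in tissue (log2 fold change 7.72 ± 0.35, SE, adjusted p = 7.28e-07). Cd68, a glycoprotein of phagocyte endosomes, was at 1518 to 2178 CPM and 19.1 to 39.2 CPM (6.33 ± 0.19, adjusted p = 1.70e-07). Hk3, the hexokinase of myeloid cells, was at 96.5 to 181 CPM and 2.21 to 6.64 CPM (4.86 ± 0.24, adjusted p = 9.94e-07). Itgax, whose product CD11c was excluded by the gate, was still at 7.47 to 54.2 CPM in sdCAMs and 0.883 to 2.73 CPM in tissue (4.06 ± 0.56, adjusted p = 3.54e-04). The remaining members, Fxyd5, a regulator of the sodium pump (164 to 449.8 CPM against 13.8 to 24.2 CPM), and Gbp3, an interferon-induced GTPase (24.4 to 54.3 CPM against 5.78 to 11.4 CPM), were higher in sdCAMs by 4.13 ± 0.21 and 2.21 ± 0.23 on the log2 scale.

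**Figure D3:**
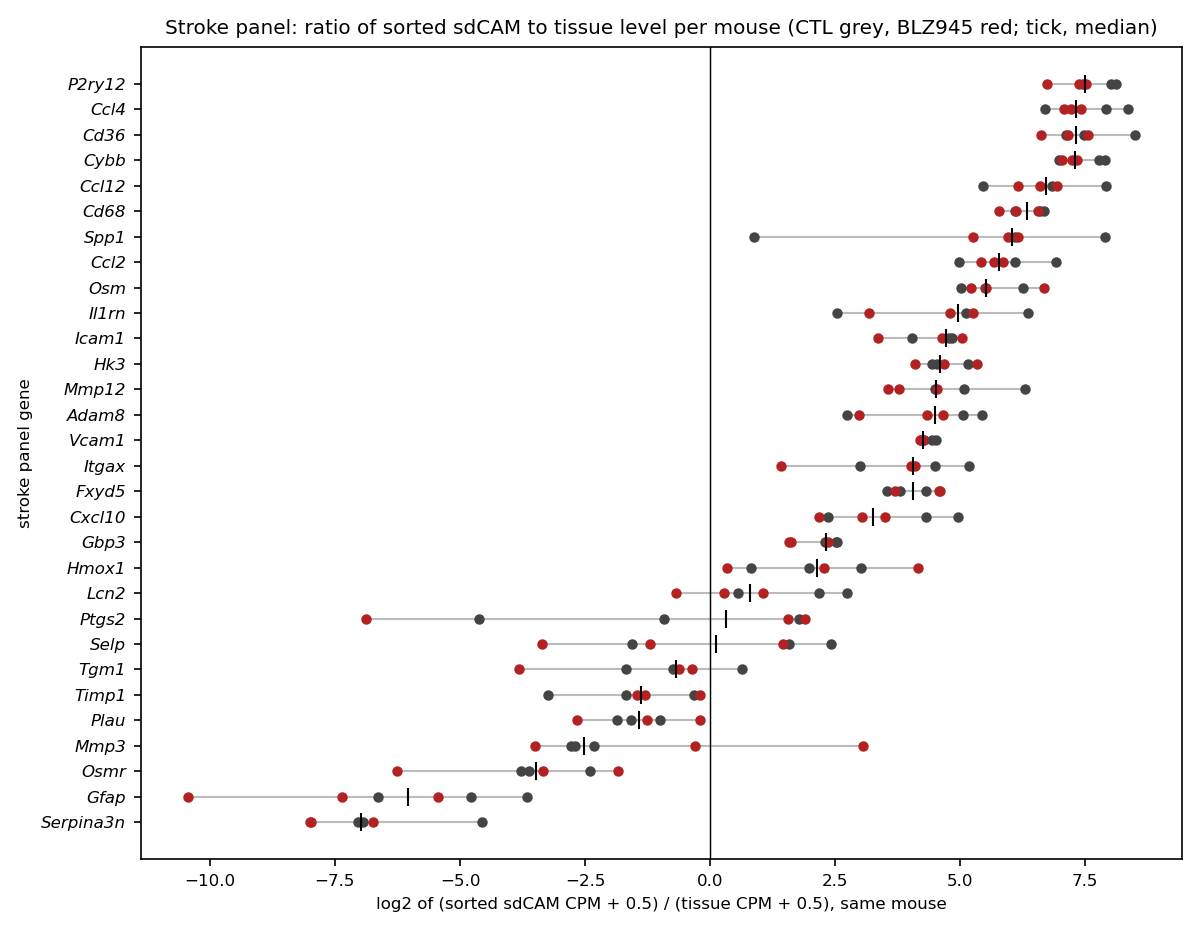
Log2 ratio of sdCAM to tissue CPM (0.5 CPM added to both) for the 30 stroke panel genes, with 1 point per mouse (CTL grey, BLZ945 red), a line over the range and a tick at the median of 6 mice. Points right of 0 are higher in sdCAMs. Serpina3n and Gfap lie far to the left in all 6 mice, Mmp3 lies on either side of 0, and the CC chemokines, Cybb and Cd36 lie far to the right.

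The level in tissue was set against the level in sdCAMs of the same mouse, as a description. Tissue held 0.177 to 0.323% of the sdCAM level of Mrc1 (median 0.252%), 0.180 to 1.36% of that of Cd163 (median 0.491%) and 0.0668 to 0.259% of that of Pf4 (median 0.114%). Of the 25 panel genes with a median of at least 1 CPM in sdCAMs and a count in each of them, 18 exceeded the percent of all 3 markers in every mouse. Of the other 7, Ccl12 and Spp1 did so in 5 mice and Osm in 4. The 4 genes with only 3 such mice were Ccl4 (median 0.515%), Cybb (0.550%), Cd36 (0.477%) and P2ry12 (0.538%), which lay near Cd163. Ccl2 had a median of 1.66%, Mmp12 of 3.78%, Vcam1 of 5.09%, Cxcl10 of 9.72% and Hmox1 of 22.8%. The filter left out Serpina3n, Osmr, Mmp3, Timp1 and Selp. Stab1, Siglec1, Apoe, Dab2 and Maf of the border macrophage list also exceeded all 3 markers in every mouse. The count of 18 is therefore not particular to stroke genes, and no share over all genes was computed. A gene above the markers had more transcript in tissue, per sdCAM transcript, than those 3 genes had, and which cells held it was not measured.

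Phagocyte programs outside the panel were nearly all higher in sdCAMs. All 11 genes of MHC class II presentation were (median log2 fold change 7.37), with Cd74, the invariant chain, at 3301 to 8577 CPM in sdCAMs and 5.78 to 20.0 CPM in tissue, and H2-Ab1 at 1582 to 3093 CPM and 1.37 to 5.81 CPM. Of 14 lysosomal genes 13 were higher (median 4.09). Ctsb, cathepsin B, was at 12533 to 15775 CPM in sdCAMs and 759 to 913 CPM in tissue, and the exception, Psap, which encodes prosaposin, was at 1478 to 2492 CPM and 1751 to 1976 CPM (0.06 ± 0.14, adjusted p = 0.707). Of 19 complement genes 14 were higher and 5 were not called (median 3.58), with C1qb at 6091 to 9562 CPM against 70.6 to 90.7 CPM and the receptor C5ar1 at 879 to 2067 CPM against 5.30 to 11.2 CPM.

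Of 17 genes for engulfment and Fc receptors, 13 were higher in sdCAMs and 4 in tissue (median 4.26). The Fc receptor Fcgr3 was at 2248 to 3181 CPM in sdCAMs and 14.9 to 21.5 CPM in tissue. The 4 higher in tissue were Mfge8, Stab2, Megf10, an engulfment receptor of astrocytes, and Tyro3, a TAM receptor found in neurons. Tyro3 was at 179 to 363 CPM in tissue and 0 in all 6 sdCAM libraries, at least 772-fold higher in tissue, whereas its relatives Axl and Mertk were higher in sdCAMs. Of 18 scavenging and lipid genes, 10 were higher in sdCAMs and 3 in tissue (median 1.46), among them Lrp1, a lipoprotein receptor of neurons and glia (115 to 258 CPM in sdCAMs and 600.5 to 752 CPM in tissue).

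Sensing and lipid mediator genes followed the same direction. Of 15 Toll-like receptors and adaptors, 14 were higher in sdCAMs (median 6.03) and Tlr9 was not called (0 to 3.01 CPM against 1.51 to 2.65 CPM). Tlr13, a receptor for bacterial ribosomal RNA, was at 584 to 696 CPM in sdCAMs and 3.34 to 10.2 CPM in tissue. Of 14 genes of prostaglandin and leukotriene synthesis, 10 were higher in sdCAMs and Ptgds, the prostaglandin D synthase of meninges and oligodendrocytes, was higher in tissue (81.6 to 341 CPM against 365 to 672 CPM). Alox5, the 5-lipoxygenase, was at 112 to 163 CPM in sdCAMs and 0.292 to 1.51 CPM in tissue. Of 16 interferon response genes 14 were higher (median 2.88), with Bst2 at 163 to 246 CPM and 2.81 to 7.78 CPM.

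Of 15 transcription factors of macrophages, 11 were higher in sdCAMs and 4 were not called (median 3.85). Mef2c, which neurons use as well, was at 409.9 to 676 CPM and 339 to 646 CPM (0.17 ± 0.19, adjusted p = 0.444), and with DESeq2's size factors its log2 fold change was -0.084.

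Immediate early genes, which respond to stimulation and also to cell dissociation, were divided by member. Of 22 genes, 11 were higher in sdCAMs, 6 in tissue and 5 in neither (median 0.77). Zfp36, which destabilizes cytokine mRNA, was at 1009 to 3155 CPM in sdCAMs and 9.48 to 23.4 CPM in tissue, and Fos at 659.6 to 3643 CPM and 14.2 to 156 CPM. Those higher in tissue were Fosb, Egr3, Nr4a1, Nr4a2, Arc and Npas4. Npas4, an activity-dependent factor of neurons, was at 7.23 to 215 CPM in tissue and 0 in all 6 sdCAM libraries (at least 232-fold higher in tissue). The part of dissociation in the genes higher in sdCAMs was not tested. Of 9 heat shock genes, 1 (Hspe1) was higher in sdCAMs and 4 in tissue (median -1.26), with Hsph1 at 30.4 to 83.1 CPM in sdCAMs and 405 to 864 CPM in tissue.

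Of 18 proliferation genes, 9 were higher in sdCAMs, 2 (Mki67 and Kif11) in tissue and 7 in neither (median 1.60). Those higher in sdCAMs included the replication genes Mcm2, Mcm3, Mcm5, Mcm6, Pcna, Tyms and Rrm2, with Mcm3 at 78.3 to 166 CPM and 4.74 to 7.79 CPM. Cdk1, the mitotic kinase, was at 4.77 to 12.4 CPM in sdCAMs and 0.0884 to 0.779 CPM in tissue, whereas Kif11, a mitotic motor, was at 0 to 5.02 CPM and 1.53 to 3.21 CPM. Of 19 genes of glycolysis and hypoxia, 6 were higher in sdCAMs and 8 in tissue (median -0.53). Hk1, the main hexokinase of brain, was at 27.96 to 93.8 CPM in sdCAMs and 501 to 589 CPM in tissue, which is the opposite of Hk3.

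**Figure D4:**
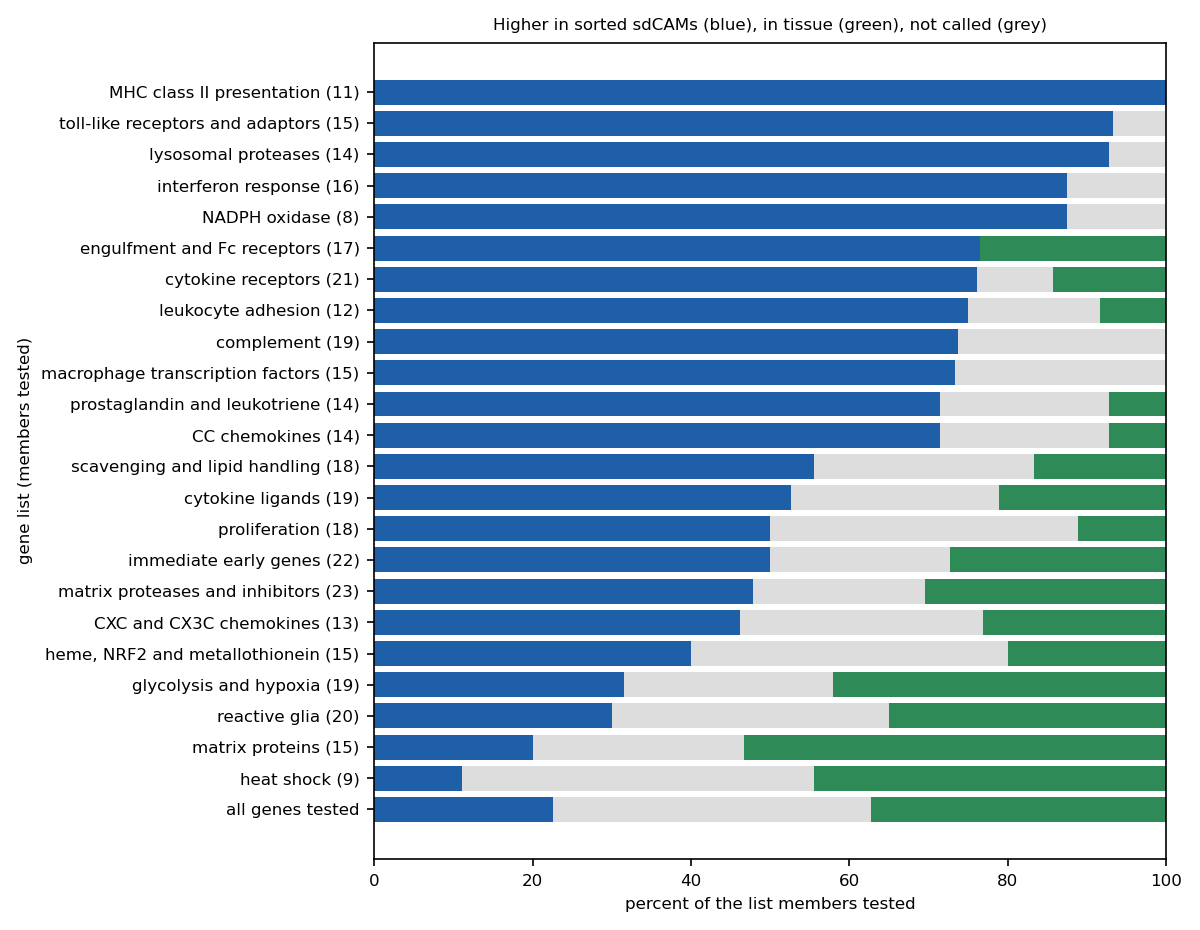
Percent of the tested genes of 23 functional lists that were higher in sdCAMs (blue), not called (grey) or higher in tissue (green), with the number tested beside each name and all 19157 genes tested as the lowest bar (22.6% higher in sdCAMs and 37.2% higher in tissue). MHC class II genes were all higher in sdCAMs, the Toll-like receptor and lysosomal lists were higher but for 1 gene each, and matrix, glycolysis and reactive glia genes were divided.

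Whether previous repopulation altered the sdCAM to tissue ratio was tested as the difference of the paired log2 ratios between 3 BLZ945 and 3 CTL mice. No gene of 19157 was called by edgeR (0%, smallest adjusted p = 1), with 392 genes at an unadjusted p under 0.05. DESeq2 called 29 genes and limma called 0. For the stroke panel, the log2 ratio had a median of 4.49 in CTL mice and of 4.06 in BLZ945 mice. Their differences ranged from -4.93 (Selp) to 4.35 (Mmp3) with a median of -0.38. Among its 30 genes only Mmp12 was under 0.05 without adjustment, at a log2 ratio of 5.44 in CTL and 4.05 in BLZ945 mice (difference -1.39, edgeR unadjusted p = 0.0388). With 3 mice a group, these values do not show that the treatments were alike.

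The contralateral libraries of the same 6 mice served to ask whether the sdCAM to tissue ratio differed between the hemispheres. Over 24 libraries and 19353 genes, the ratio was larger on the lesioned side for 76 genes (0.393%) and smaller for 2177 (11.2%), and the median difference over all genes was -0.37 on the log2 scale. With DESeq2 427 genes were larger and 2596 smaller, which moved the share of larger calls from 3.37% to 14.1%. With limma, fitted to per-mouse log2 differences, 0 were larger (402 at an unadjusted p under 0.05) and 975 were smaller. Leaving out 1 mouse left 33 larger without A4, 43 without B1, 23 without C3, 24 without C4 and 50 without D1, so that the count of larger genes changed by over 1.5 times with most of the mice. Ipsilateral sdCAM libraries also had fewer genes with a count than contralateral ones (13623 to 15144 against 15202 to 16431), and lower summed levels of endothelial genes (195.0 to 399.7 against 1836 to 5483 CPM) and mural cell genes (61.5 to 311.0 against 1069 to 5385 CPM). The choroid plexus list was at 0.478 to 1436 CPM in ipsilateral and 45.5 to 40095 CPM in contralateral sdCAM libraries. The part of these differences in the smaller ratios was not tested.

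The stroke panel was drawn up as genes of the tissue response with results of these libraries in view, so a higher level in ipsilateral tissue, and with it a smaller ratio, follows from that choice. As a description only, the ratio was smaller on the lesioned side for 18 of its 30 genes and larger for none (11.2% and 0.393% of all genes), and nothing is read from these shares. As fitted values without a test, the tissue level was higher ipsilaterally for 29 of the 30 genes (median log2 difference 2.19), and the sdCAM level for 18 of the 30 (median 0.50). Ccl4 was at 0 to 0.0944 CPM in contralateral and at 1.40 to 3.94 CPM in ipsilateral tissue. The sdCAMs held it on both sides, at 83.8 to 678 CPM and 324 to 1076 CPM (difference of log2 ratios -5.97 ± 0.84, SE). Mmp12 was at 0 to 0.189 CPM in contralateral tissue, against 2.41 to 11.2 CPM ipsilaterally, and at 10.5 to 167 CPM in contralateral sdCAMs, against 75.5 to 311 CPM. Osm was at 0 to 0.199 CPM in contralateral tissue and at 16.5 to 203 CPM in contralateral sdCAMs, a range that overlaps the ipsilateral 33.8 to 185 CPM.

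The fitted log2 ratio was above 0 on the contralateral side for 28 of the 30 genes (median 5.58). For Osmr, Mmp3, Timp1, Plau, Ptgs2, Selp and Tgm1 it was below 0 on the lesioned side, where of these only Osmr and Plau were called. Osmr was at 15.6 to 47.8 CPM in contralateral sdCAMs and 4.58 to 5.86 CPM in contralateral tissue, and at 0 to 8.49 CPM and 21.4 to 38.0 CPM on the lesioned side. The difference of the log2 ratios was -5.94 ± 0.85 (SE, edgeR). Serpina3n, by contrast, had a fitted ratio below 0 on both sides, at 15.3 to 37.2 CPM in contralateral tissue and 3.16 to 32.7 CPM in contralateral sdCAMs. Vcam1 differed little between sides, at 398 to 623 CPM in contralateral sdCAMs and 17.2 to 35.2 CPM in contralateral tissue (difference 0.09 ± 0.19). Over other lists, the ratio was smaller ipsilaterally for all 13 endothelial genes and 9 of 12 oligodendrocyte lineage genes, beside 11.2% of all genes tested. The ratio was smaller for none of the border macrophage, microglial or MHC class II genes. It was smaller for 15 of 20 reactive glia genes and 7 of 14 CC chemokines. Both of these lists share members with the stroke panel, so nothing is read from their shares.

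**Figure D5:**
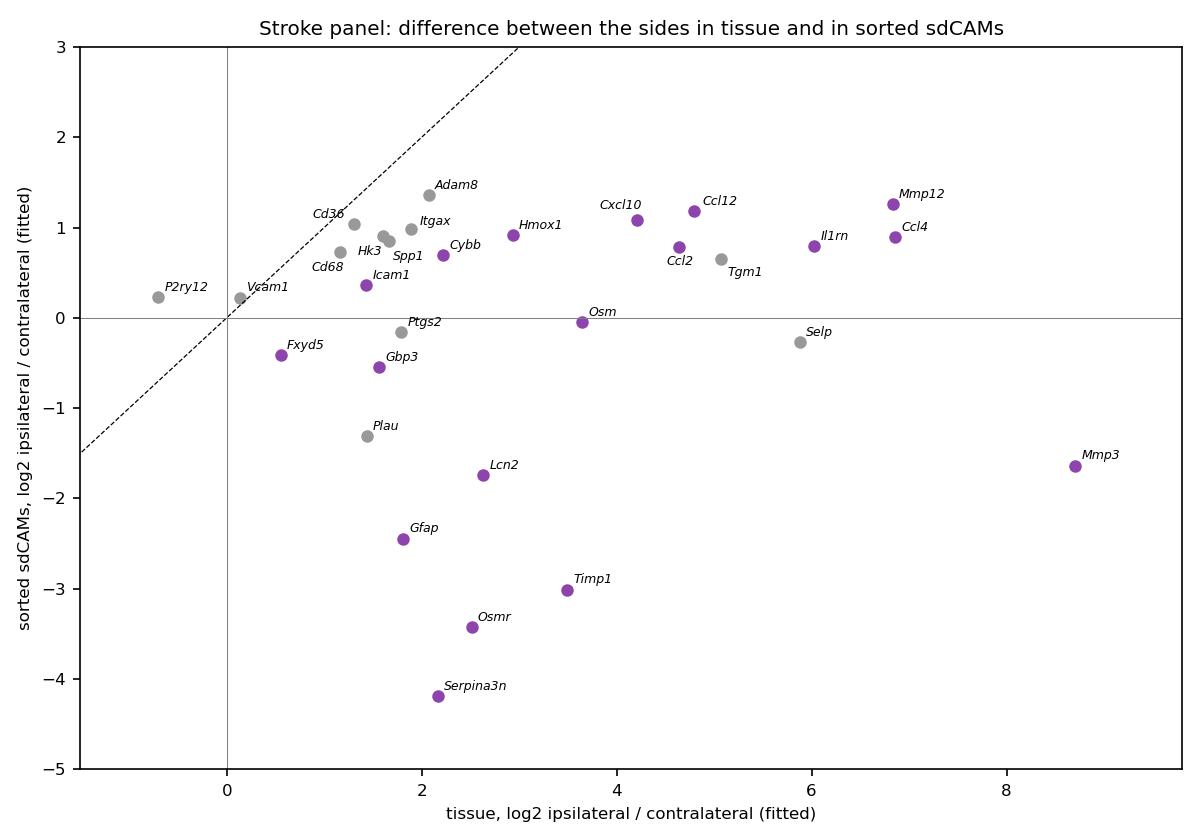
Fitted log2 difference between the lesioned and the contralateral side for the 30 stroke panel genes, in tissue on the horizontal axis and in sdCAMs on the vertical axis, with purple for the 18 genes whose difference between sides was called for the ratio and a dashed line where both are equal. All genes but P2ry12 and Vcam1 lie below the line, and several contralateral tissue groups are near 0 counts, so that their fitted values depend on the prior count.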

How the data were processed

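Bulk RNA-seq libraries of sorted sdCAMs and of brain tissue were grouped by the sample labels, and all libraries carry a single batch label. Per the labels and methods, the authors demultiplexed reads with bcl2fastq 2.20, aligned them with STAR 2.7.11a, counted them on genes with featureCounts 2.0.8 and deposited raw counts without normalization, 1 table per compartment. The paper names mm10 and GRCm39 as builds of its bulk libraries but not which of them these tables used, and strand use is not given in the sources used here, so genes are named by symbol, and overlapping or near-identical genes are uncertain. Of the columns, 2 (tissue of mouse A3, whose hemisphere differs between header and labels) were not mapped and not used. Both tables shared 33280 genes by row name. Replicates were taken as separate mice from the names in the labels, and p-values measure the spread between these samples. For its stroke sorts the paper describes pooling the cells of 2 BLZ945 mice per replicate. A figure legend gives this for another mouse line, and whether it held for the BLZ945 sdCAM libraries used here is not stated. Libraries of a group varied 6.86 to 139-fold more than sampling alone would give, so none was a copy of another.

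Genes with a summed count of 6 or more over the 12 ipsilateral libraries (12 or more over the 24 libraries of both sides) were fitted with the quasi-likelihood test of edgeR 4.0.16 (R 4.3.3), with library totals as sizes and the mouse as a block. All tests were two-sided, p-values were adjusted by Benjamini-Hochberg over all genes tested, and a gene was called below an adjusted p of 0.05 and outside a log2 fold change of 0.59. Each SE was derived from the test, as the absolute log2 fold change divided by the square root of the F statistic. It was not estimated separately and can depart from the p-value. The treatment and side differences of the sdCAM to tissue ratio were contrasts of the same kind. For the side difference, a single mouse effect was shared by both compartments, with no term for mouse and compartment together. The edgeR p-values of the side difference therefore do not pair the sides within a compartment of a mouse. The limma fit on per-mouse log2 differences keeps that pairing. Pairing came from the animal: deviations from the group means correlated by -0.112 to 0.124 between the libraries of a mouse (median 0.0355 over 9446 genes, against -0.0008 between mice), and 3 of 6 correlated best with their own mouse. The code was tested on simulated data.

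The members, the 39 gene lists and the rule for named genes were chosen with earlier results of these data known. Named were the 3 markers, the stroke panel, the 5 largest called changes per direction at a mean of 50 CPM or more (10 CPM for the side difference), and from each list the largest called member per direction and the 2 most abundant members. Some genes that this rule picks are not reported here. Other genes were named after their values were seen, as members of a small count or of the marker check. Of 508 listed genes, 3 had no row and 4 were below the filter. Promoters came from RefSeq (GRCm38.p6), where 13882 of the 19157 tested genes matched. The alternatives were TMM, totals without mitochondrial and ribosomal protein genes, DESeq2 1.42.0, its size factors in edgeR, filterByExpr, no filter, no replicate block, other thresholds, each treatment alone, leaving out each mouse, and limma 3.58.1 on per-mouse log2 differences, the last added after the data had been seen.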

Additional observations from a re-analysis of the deposited data

Results flagged for a closer look

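Serpina3n stood apart in 1 mouse. The log2 ratio of sdCAM to tissue CPM (0.5 CPM added to each) was -4.56 in CTL mouse A2 and -7.99 to -6.73 in the other 5 mice (median -7.03), so that the gap to the nearest mouse exceeded the range-based limit for 6 samples. This was 1 of 43 sets of 6 values examined, and chance alone gives about 1 in 20.

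The difference of the sdCAM to tissue ratio between the sides was tested directly. It was called toward the lesioned side for 76 genes and away from it for 2177 genes of 19353 (edgeR). Among genes at a mean of 10 CPM or more in any kind of library, the largest differences toward the lesioned side were those of Otof (4.69), Tlr12 (1.77), Utp20 (1.70), Mcm5 (1.498) and Tmppe (1.44) on the log2 scale. Otof, the otoferlin of vesicle fusion, was at 0 to 2.51 CPM in ipsilateral and 0 to 0.0902 CPM in contralateral sdCAMs, near the floor on both sides. Tlr12, an endosomal receptor for profilin, was at 18.2 to 35.3 CPM in ipsilateral and 7.82 to 32.3 CPM in contralateral sdCAMs. Mcm5, a subunit of the replicative helicase, was at 21.6 to 80.9 CPM and 8.03 to 22.8 CPM. Utp20, a factor of ribosome assembly, was at 8.37 to 31.4 CPM and 1.27 to 10.97 CPM, and Tmppe at 24.98 to 40.6 CPM and 5.67 to 19.4 CPM. None of these 5 calls held with limma, and each was lost without at least 3 of the mice in turn.

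The largest differences away from the lesioned side were those of Serpinb1b (-10.91), Gm11992 (-10.87), Mmp3 (-10.34), Sfrp1 (-9.77) and Spag8 (-9.64). Serpinb1b, Gm11992, Sfrp1 and Spag8 were at 0 in all 6 ipsilateral sdCAM libraries, so their fitted sizes depend on the prior count and are no bounds. In contralateral sdCAMs, Sfrp1, a secreted antagonist of Wnt signaling, was at 1.24 to 24.9 CPM, Serpinb1b at 0 to 65.8 CPM, Gm11992 at 5.44 to 40.5 CPM and Spag8 at 0 to 23.6 CPM. The Mmp3 call was lost without B1 (-9.36), without C4 (-9.33) and without the replicate block.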

How the results depend on the processing

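The counts of genes higher in sdCAMs (4335) stayed within 1.5 times under every alternative, from 3009 to 5089, and those higher in tissue (7119) within 1.5 times except with only the 3 CTL mice (4316) or only the 3 BLZ945 mice (4633), fits with fewer samples. Scaling by DESeq2's size factors moved the median log2 fold change of all genes by -0.25, and TMM by -0.03. For the treatment difference, DESeq2 called 29 genes and the fit with no replicate block 5, against 0. For the side difference, genes larger ipsilaterally numbered 171 with TMM, 427 with DESeq2, 246 with DESeq2's size factors, 115 with no replicate block, 0 with limma, 21 beyond a log2 fold change of 1 and 23 (without C3) to 65 (without A2) when a mouse was left out, against 76. Without A4, B1, C4 or D1 they were 33, 43, 24 and 50. Genes smaller ipsilaterally numbered 975 with limma, against 2177. Except where fewer samples entered, the cause was not tested.

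Without the pairing by mouse (no replicate block), 5089 genes were higher in sdCAMs and 7760 in tissue, and 115 and 2638 differed between sides. This fit turned the log2 fold change of 5 named genes that were not called: Mmp3 (1.68), Ptgs2 (0.51), Selp (0.21), Aldh1a2 (0.45) and Fn1 (0.23). With a mouse left out, Ptgs2 was at -1.40 to 0.37, Selp at -2.18 to 0.73, Aldh1a2 at -1.41 to 0.0845, Fn1 at -1.06 to 0.0128 and Cd4 at -0.59 to 0.38. With only the 3 CTL mice, Selp was at 1.57, Ttr at -3.78 and Cd4 at 1.57, and with only the 3 BLZ945 mice Ptgs2 was at 0.17 and Aldh1a2 at 0.71. Mef2c was at -0.084 with DESeq2 and with its size factors. Among the named genes, 16 calls were lost with the CTL mice alone and 15 with the BLZ945 mice alone. Levels below the floor of 3 counts, 0.241 to 0.362 CPM, cannot be told from 0.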

Other observations

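A gene of red blood cells and a gene of pericytes spread widely between mice in ipsilateral sdCAMs. Hbb-bt, a hemoglobin chain, was at 0.873 to 35.0 CPM in ipsilateral and at 27.02 to 344 CPM in contralateral sdCAMs, with 0.754 to 5.19 CPM in ipsilateral tissue, and its call over ipsilateral tissue was lost without A4, B1, C3 or C4. Rgs5, a pericyte regulator of G-protein signaling, was at 5.52 to 68.0 CPM in ipsilateral and at 71.1 to 378 CPM in contralateral sdCAMs, whereas tissue was at 58.2 to 77.4 CPM and 63.0 to 82.1 CPM.

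Nkg7, a granule protein of cytotoxic lymphocytes, was at 16.9 to 80.3 CPM in sdCAMs and 0 to 0.482 CPM in tissue, and Cd3d, a chain of the T cell receptor complex, at 5.06 to 25.9 CPM and 0 to 0.167 CPM. Cd4 was at 7.72 to 45.4 CPM in sdCAMs and at 6.10 to 44.0 CPM in tissue, without a call (log2 fold change -0.06 ± 0.72, SE, edgeR adjusted p = 0.942).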
